A study of Rattus norvegicus with 8 samples.

Results

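Amino acid transporters were examined in rat left ventricle as 55 genes, out of 14497 named genes on the array. They were chosen by name, as every gene whose symbol in the platform annotation belongs to the solute carrier families SLC1, SLC3, SLC6, SLC7, SLC36, SLC38 or SLC43. Each of the 55 had 1 probe set, the array's unit of measurement for a gene. The rule also takes in Slc7a6os, the gene on the opposite strand of Slc7a6, whose protein is not a transporter, so 54 of the 55 encode carriers or their partner chains. Of the 8 arrays, 5 are labelled ILPD and 3 placebo. Both groups are left ventricles of female rats in late pregnancy whose hearts had undergone ischemia, the loss of blood supply, and then reperfusion. In the ILPD group reperfusion came with 1 bolus of 5 mg/kg of a treatment that the design text abbreviates as ITLD, and in the placebo group with a vehicle. That ILPD and ITLD are the same treatment, the lipid emulsion Intralipid of the series title, is assumed. Replicates are numbered in the labels, but nothing there ties a number to an animal of its own. The p-values below therefore reflect how far these samples spread, some of which may be technical. Hearts without ischemia were not analysed here.

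These carriers move amino acids and related molecules across the plasma membrane and the lysosomal membrane. Some exchange an amino acid inside the cell for another outside, and others use the sodium, potassium or proton gradient to concentrate their substrate. In the exchangers of the SLC7 family a light chain, which forms the pore, is tied by a disulfide bond to a heavy chain of the SLC3 family, which brings it to the surface. Leucine that enters in this way is sensed at the lysosome by the kinase complex mTORC1, and a shortage of amino acids raises translation of the transcription factor ATF4, which in turn induces several carriers. Heart muscle also takes up taurine, an osmolyte, and creatine, the acceptor of high-energy phosphate, through members of the SLC6 family.

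The array values are log2 signals as deposited, with array medians between 7.16 and 7.20 in ILPD and between 7.08 and 7.14 in placebo. Precision is limited by how few arrays there are. Signals of different probe sets are not comparable as abundances. Among the 55 genes, 21 lay within the dimmest 40% of all probe sets, at a mean log2 value below 6.77, and no detection call was used. Over a list of 6 cardiomyocyte markers the mean was between 13.40 and 13.58 on ILPD arrays and between 13.57 and 13.63 on placebo arrays. These means were not set against another tissue, so they do not test the tissue label. All 6 markers had a negative difference, with a median of -0.12, which was 0.02 after quantile and 0.07 after cyclic loess normalization. The difference between the groups depended on brightness over the whole array. Its median over all probe sets was 0.06 at mean log2 values from 7 to 8 and -0.14 from 12 upward.

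The exchanger light chain Slc7a5 was higher in ILPD hearts by nearly 1 log2 unit, and none of the other 54 genes passed the test. In limma's test over all 28826 probe sets, with Benjamini-Hochberg adjustment and a threshold of 0.05, 1 of 55 genes rose and 0 fell. Over all probe sets 1.96% rose and 0.857% fell, 2.81% in either direction, so 1 call among 55 is near the background. At an unadjusted p under 0.05 there were 9 of 55 genes (7 higher and 2 lower), against 18.3% of all probe sets. The groups did not overlap for 5 genes that were higher in ILPD and 2 that were lower. Over all probe sets these shares were 7.95% and 4.42%, or 12.4% in either direction, again near what the transporters showed. Their median difference was 0.05, against 0.02 over all probe sets, and single differences ran from -0.27 to 0.97. A positive difference was seen for 38 of the 55 as deposited, but for 25 after a further quantile normalization and for 28 after cyclic loess normalization. Over all 28826 probe sets it was seen for 16871 as deposited, 12832 after quantile and 14293 after cyclic loess normalization, so the whole array shifted as well. In bulk tissue, fewer cells of a type and less RNA per cell cannot be told apart.

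The count of transporters that rose differed between settings. After quantile normalization 1 of the 55 rose, against 1.05% of all probe sets (1.68% in either direction). After cyclic loess 2 rose, Slc7a5 and Slc6a6, against 1.37% (1.95% in either direction). The same 2 rose with array weights, against 2.41% (3.46% in either direction), and among named probe sets alone, against 3% (4.63% in either direction). At a threshold of 0.1 these 2 rose and Slc6a8 fell, against 6.09% called in either direction. With the replicate number as a block 4 rose, against 1.17% (1.59% in either direction), but the numbers were not found to pair the samples. Only 3 of the 5 ILPD numbers occur in placebo, so that fit takes its difference from the 3 arrays per group that share a number.

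**Figure D1:**
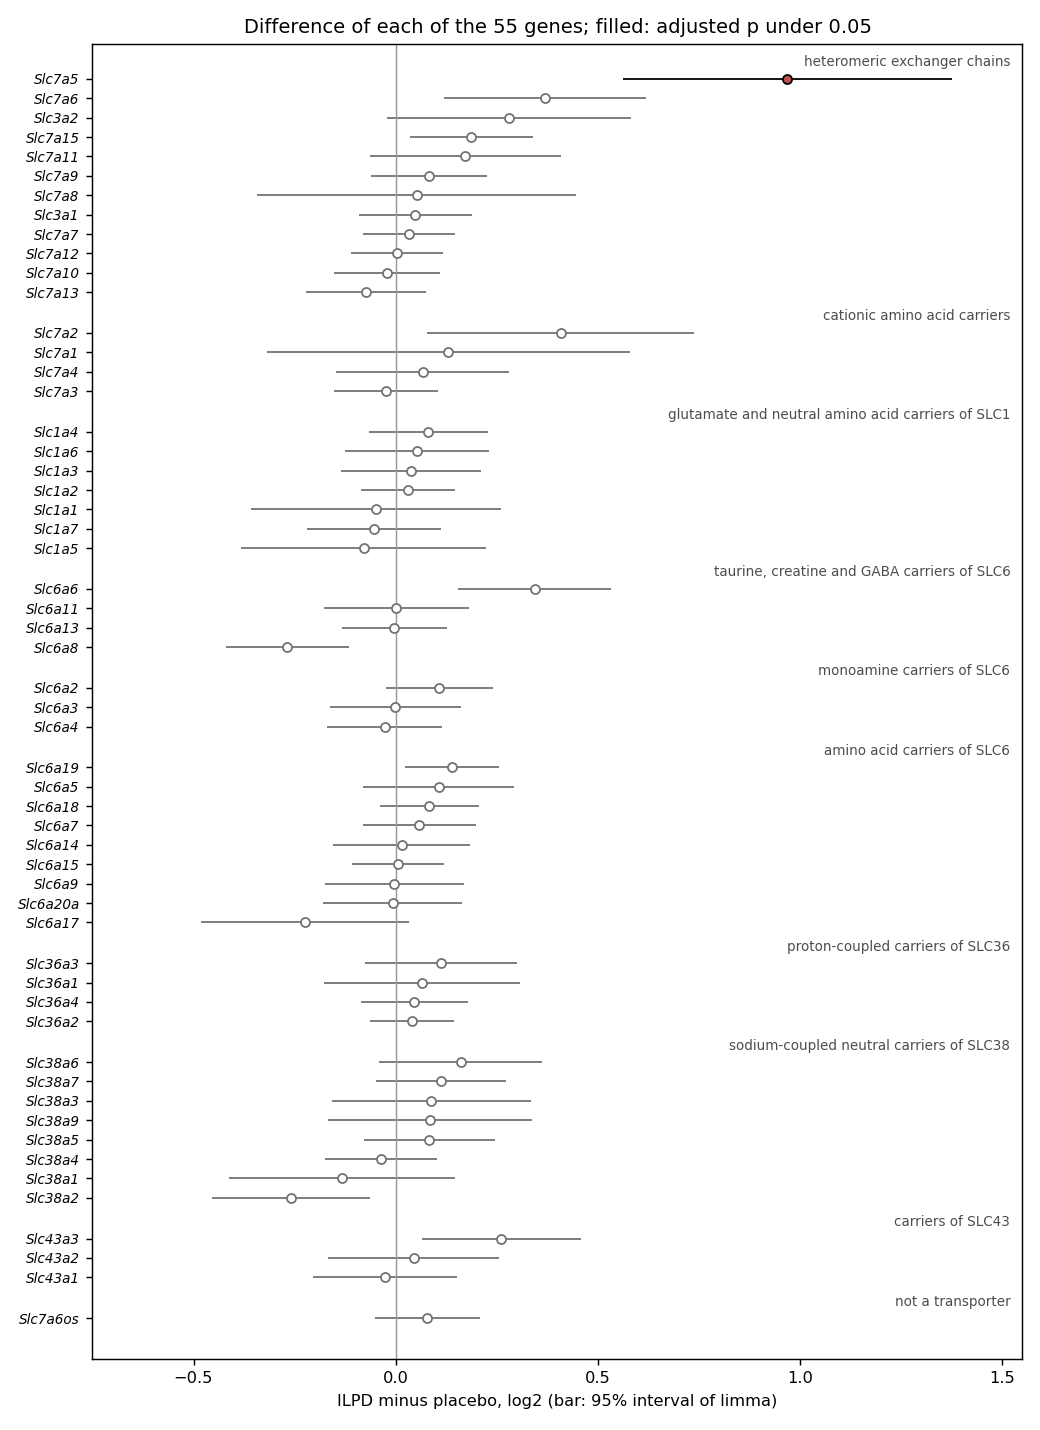
Difference between ILPD and placebo on the log2 scale for each of the 55 genes, grouped by role, with bars for limma's 95% interval and a filled point for an adjusted p under 0.05. Slc7a5, at 0.97, is the filled point, and the other 54 lie between -0.27 and 0.41.

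Slc7a5 encodes the light chain that imports leucine, tryptophan and other large neutral amino acids in exchange for glutamine. Its probe set (10811531) had log2 values of 10.39, 10.63, 10.49, 10.24 and 10.09 on ILPD arrays 1 to 5, against 9.24, 9.05 and 9.91 on placebo arrays 1 to 3. All 5 ILPD arrays were above all 3 placebo arrays, though placebo array 3 came within 0.2 of the lowest ILPD array. The means were 10.37 ± 0.21 (SD, n = 5) in ILPD and 9.40 ± 0.45 (SD, n = 3) in placebo. The difference was 0.97 on the log2 scale (SE 0.18, 95% interval 0.56 to 1.38, limma adjusted p = 0.0265), a 1.96-fold difference. The call depended on single arrays. Leaving out ILPD array 2 gave an adjusted p of 0.0586, and leaving out ILPD array 3 gave 0.05225. It was 0.0946 when placebo array 1 was left out and 0.101 when placebo array 2 was. Without placebo array 3, the highest of its group, the difference was 1.22 (adjusted p = 0.0111). It was 1.01 after quantile normalization and 1.04 after cyclic loess, with calls kept in both.

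The 250 bases before the annotated start of Slc7a5 are shown because it is the transporter gene that passed the test. They lie on the minus strand at chr19:66872413-66872662 of the rat build GRCr8, from RefSeq, and capitals mark the E-box CACGTG, a motif bound by MYC and related factors, and the GC box GGGCGG, bound by SP factors.

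Slc7a5: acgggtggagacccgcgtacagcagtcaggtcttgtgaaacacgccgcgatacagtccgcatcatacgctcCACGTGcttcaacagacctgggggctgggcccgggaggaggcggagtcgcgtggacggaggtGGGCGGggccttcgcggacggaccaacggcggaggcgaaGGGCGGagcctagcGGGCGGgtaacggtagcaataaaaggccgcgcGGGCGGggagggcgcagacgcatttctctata

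The stretch holds 1 E-box, at -179 to -174 from the start, and 4 GC boxes between -117 and -27, none of which overlaps the E-box. It holds 0 copies of TGATGNAA, the core of the C/EBP-ATF response element through which ATF4 acts. Sequence further upstream was not searched, nor was the gene beyond its first 50 bases, so a copy there would be missed. Promoter windows running from 250 bases before the start to 50 after it were found in RefSeq for 43 of the 55 genes. All windows together outnumber the 14497 named genes of the array, so they were not limited to genes measured here. Shares of the members and of all windows are given side by side, and the gap between them was not tested. On either strand, the E-box was found in 7 of the 43 (16.3%), against 6.42% of all 33469 promoter windows. The GC box was found in 22 of 43 (51.2%), against 33.1% of all windows. TGATGNAA was found in 3 of 43 (6.98%), against 3.98% of all windows. These 3 were Slc1a4, Slc38a1 and Slc7a1. Their matches are shown in 30-base stretches, with the matched letters in capitals. That of Slc1a4 (chr14:98761779-98761808, minus strand) is on the reverse strand of the gene, and those of Slc38a1 (chr7:129681525-129681554, minus strand) and Slc7a1 (chr12:11664447-11664476, plus strand) are in the gene's direction.

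Slc1a4: cgcctccagcgTTGCATCAtccagccagca

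Slc38a1: gggggaaactcTGATGCAAccaaccagtcc

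Slc7a1: cggcgcgcggcTGATGAAAccggctcggat

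None of these 3 genes passed the test, and their values are given with their families below. A match of letters is a description of the sequence and not a binding site.

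Slc3a2 encodes the heavy chain (CD98) that pairs with Slc7a5 and most other light chains. Its log2 values were 11.78, 11.91, 12.10, 11.55 and 11.60 on ILPD arrays 1 to 5, and 11.32, 11.44 and 11.76 on placebo arrays 1 to 3. The groups overlapped, with placebo array 3 above ILPD arrays 4 and 5. The difference was 0.28 (SE 0.14, 95% interval -0.02 to 0.58, limma adjusted p = 0.315), which did not pass. It was 0.40 after quantile normalization (adjusted p = 0.1805) and 0.42 after cyclic loess (adjusted p = 0.1693), and did not pass in either. Its probe set is in the range of levels where the median of all probe sets was -0.13 as deposited. ILPD arrays 4 and 5 had the lowest ILPD values and placebo array 3 the highest placebo value for Slc7a5, Slc3a2 and Slc7a6 alike, an order noted after the values were seen. Placebo array 3 was also the highest placebo array for 27 of all 55 genes and for 6 of the 12 heteromeric exchanger chains.

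Slc7a6 encodes another partner of Slc3a2, which exports cationic amino acids in exchange for neutral ones. It had log2 values of 8.99, 9.23, 9.33, 8.87 and 8.84 on ILPD arrays and 8.63, 8.67 and 8.74 on placebo arrays, without overlap. Its difference was 0.37 (SE 0.11, 95% interval 0.12 to 0.62, limma adjusted p = 0.116), which did not pass. Slc7a6os, which shares its locus, differed by 0.08 (adjusted p = 0.531).

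The other light chains had smaller differences. Slc7a11, the cystine and glutamate exchanger that feeds glutathione synthesis, differed by 0.17 (SE 0.11, adjusted p = 0.437), with overlapping groups and a mean log2 value within the dimmest 40%. Slc7a8, a relative of Slc7a5 with a similar range of substrates, differed by 0.05 with a wide interval of -0.34 to 0.45, and by 0.01 after quantile and 0.03 after cyclic loess normalization. Slc7a7, related to Slc7a6, differed by 0.03, and by -0.04 after quantile and -0.03 after cyclic loess normalization. Over the 12 heteromeric exchanger chains, 1 rose and 0 fell, and the median difference was 0.07. The light chains Slc7a9, Slc7a10, Slc7a12, Slc7a13 and Slc7a15 and the heavy chain Slc3a1, the renal partner of Slc7a9, did not pass.

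**Figure D2:**
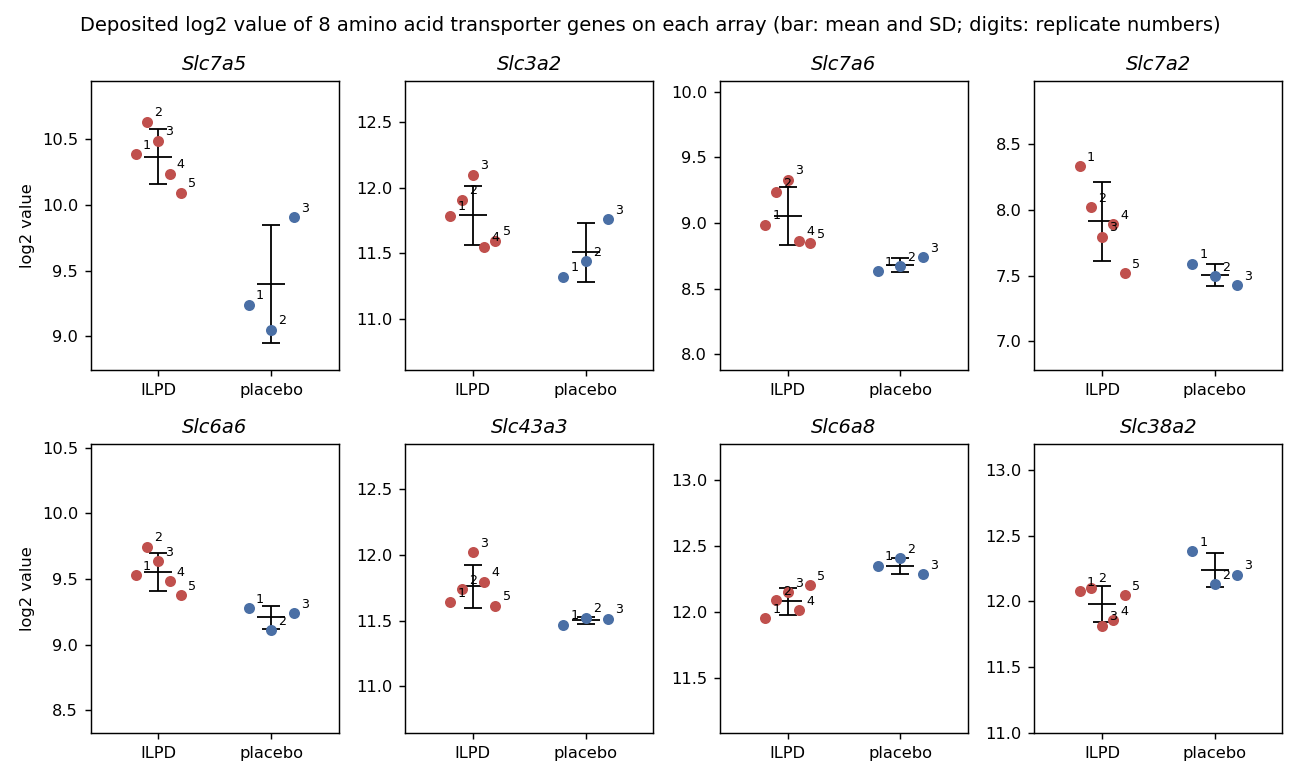
Deposited log2 values of 8 transporter genes on the 5 ILPD arrays (left, red) and 3 placebo arrays (right, blue), with mean and SD as bars, replicate numbers beside the points and the same span on each vertical axis. Slc7a5 shows the widest gap between group means, with placebo array 3 (9.91) just under ILPD array 5 (10.09).

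Among the 4 cationic amino acid carriers, which bring in arginine, lysine and ornithine, 0 passed. Slc7a2, which supplies arginine to nitric oxide synthase in macrophages, had log2 values of 8.33, 8.02, 7.80, 7.89 and 7.52 on ILPD arrays and 7.59, 7.49 and 7.43 on placebo arrays. ILPD array 5 lay below placebo array 1, and the other 4 ILPD arrays were above all placebo arrays. The difference was 0.41 (SE 0.15, 95% interval 0.08 to 0.74, limma adjusted p = 0.180). Slc7a1, the carrier of most cells, differed by 0.13 (SE 0.20, adjusted p = 0.796). Its placebo arrays were spread from 8.20 to 9.06, with placebo array 3 above all ILPD arrays (8.29 to 8.91), and the difference was -0.04 without placebo array 1 and 0.39 without placebo array 3.

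Taurine and creatine, which heart muscle stores at high concentration, had carriers whose groups did not overlap, in opposite directions. Slc6a6, the taurine carrier, had log2 values of 9.53, 9.75, 9.63, 9.49 and 9.37 on ILPD arrays and 9.28, 9.11 and 9.24 on placebo arrays. Its difference was 0.34 (SE 0.08, 95% interval 0.15 to 0.53, limma adjusted p = 0.0624). It did not pass, but it did in 4 of 16 alternatives, among them cyclic loess normalization (0.39, adjusted p = 0.0337) and the fit without ILPD array 5 (adjusted p = 0.0350). Without placebo array 2 the adjusted p was 0.199.

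Slc6a8, the creatine carrier, had log2 values of 11.95, 12.09, 12.15, 12.01 and 12.20 on ILPD arrays and 12.35, 12.41 and 12.28 on placebo arrays. Its difference was -0.27 (SE 0.07, 95% interval -0.42 to -0.12, limma adjusted p = 0.0686), which did not pass. That value depended on the normalization: it was -0.13 after quantile normalization (adjusted p = 0.456) and -0.12 after cyclic loess (adjusted p = 0.494). The probe set is in the range of levels where the median of all probe sets was -0.14 as deposited. Without ILPD array 5 the adjusted p was 0.0462. The carriers of GABA and taurine Slc6a11 and Slc6a13 did not pass.

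The remaining SLC6 genes, 3 carriers of monoamines such as noradrenaline and 9 of glycine, proline and other amino acids, had 0 calls. Slc6a17, known as a carrier of synaptic vesicles, had log2 values of 9.35, 9.36, 9.15, 9.33 and 9.75 on ILPD arrays and 9.67, 9.51 and 9.66 on placebo arrays. ILPD array 5 lay above all placebo arrays and the other 4 lay below them. The difference was -0.22 (SE 0.12, limma adjusted p = 0.344), with an adjusted p of 0.0534 without ILPD array 5. Slc6a9, the glycine carrier, differed by -0.003 (95% interval -0.18 to 0.17), and by -0.08 after quantile and -0.07 after cyclic loess normalization. Slc6a19, the main neutral amino acid carrier of gut and kidney, is named because it is among the 5 genes with ILPD higher and no overlap, which was seen before it was chosen. It ran from 6.59 to 6.67 in ILPD and from 6.43 to 6.56 in placebo, a difference of 0.14 (SE 0.05, adjusted p = 0.192) within the dimmest 40%.

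Sodium-coupled neutral carriers of the SLC38 family carry glutamine, alanine and serine, and 0 of 8 passed. Slc38a2, which other cells raise when amino acids are short or the medium is hypertonic, had log2 values of 12.08, 12.10, 11.81, 11.85 and 12.05 on ILPD arrays and 12.38, 12.13 and 12.20 on placebo arrays. All ILPD arrays were below all placebo arrays, by a narrow margin for ILPD array 2. The difference was -0.26 (SE 0.09, 95% interval -0.45 to -0.06, limma adjusted p = 0.154). It was -0.14 after quantile and -0.11 after cyclic loess normalization. Its probe set is in the range of levels where the median of all probe sets was -0.14 as deposited. Slc7a5 and Slc38a2, both known as genes induced by ATF4 when amino acids are short, had differences of opposite sign. That of Slc7a5 passed and that of Slc38a2 did not, so an opposite change was not established. A part of ATF4 in either was not tested.

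Slc38a1, a glutamine carrier whose motif match is shown above, differed by -0.13 (95% interval -0.41 to 0.15, limma adjusted p = 0.637). That value was -0.03 after quantile and -0.02 after cyclic loess normalization, -0.23 without ILPD array 3 and -0.07 without ILPD array 4. Slc38a3, which moves glutamine in both directions, differed by 0.09 (adjusted p = 0.740), and by 0.19 after quantile and 0.20 after cyclic loess normalization. Slc38a9, the lysosomal arginine sensor of mTORC1, differed by 0.08 (adjusted p = 0.758), and by 0.04 after quantile normalization. Slc38a4, known from liver and placenta, differed by -0.04 (adjusted p = 0.822), and by -0.11 after quantile and -0.10 after cyclic loess normalization.

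Carriers of glutamate and of small neutral amino acids in the SLC1 family had 0 calls among 7, with differences between -0.08 and 0.08. Slc1a5, the glutamine carrier that works alongside Slc7a5, differed by -0.08 (SE 0.14, 95% interval -0.38 to 0.22, limma adjusted p = 0.821). That value was -0.15 after quantile and -0.13 after cyclic loess normalization, and -0.0017 without ILPD array 3. Slc1a4 differed by 0.08, and by -0.01 after quantile and 0.02 after cyclic loess normalization. The glutamate carriers Slc1a1 and Slc1a3 differed by -0.05 and 0.04 with overlapping groups. After quantile normalization they differed by -0.10 and -0.04, and after cyclic loess by -0.08 and -0.03.

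In the SLC36 family, proton-coupled carriers of lysosome and plasma membrane, 0 of 4 passed. Slc36a1, which takes part in amino acid sensing at the lysosome, differed by 0.06 (limma adjusted p = 0.817), and by 0.01 after quantile and 0.03 after cyclic loess normalization. Slc36a4 differed by 0.05, and by -0.03 after quantile and -0.01 after cyclic loess normalization.

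Of the 3 SLC43 genes 0 passed. Slc43a3, described in other work as a carrier of purine nucleobases rather than of amino acids, had log2 values of 11.64, 11.74, 12.02, 11.80 and 11.61 on ILPD arrays and 11.47, 11.52 and 11.51 on placebo arrays. The groups did not overlap, and the placebo arrays lay close together. The difference was 0.26 (SE 0.09, 95% interval 0.06 to 0.46, limma adjusted p = 0.154), and it was 0.40 after cyclic loess normalization (adjusted p = 0.0931). Slc43a1 and Slc43a2, sodium-independent carriers of branched-chain amino acids, differed by -0.03 and 0.04. After quantile normalization they differed by -0.08 and -0.01, and Slc43a1 by -0.07 after cyclic loess.

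**Figure D3:**
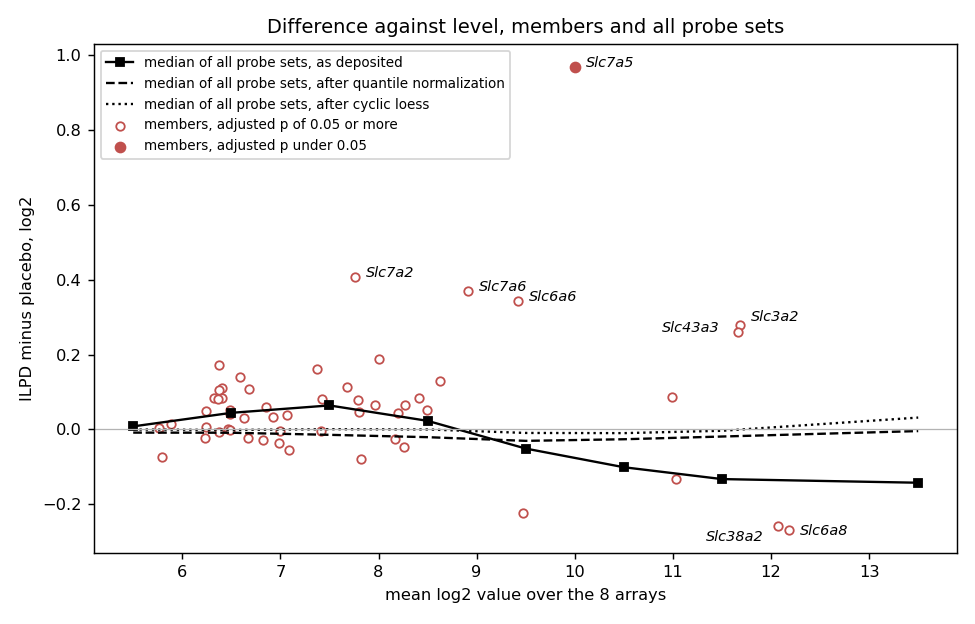
Difference between ILPD and placebo against mean log2 value for the 55 genes (red), with the median of all probe sets by level as black lines for the values as deposited, after quantile and after cyclic loess normalization. The deposited median is 0.06 at levels from 7 to 8 and -0.14 from 12 upward, and Slc7a5 at 0.97 stands far above it.

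Genes of the pathways around these carriers were counted over 6 lists with 103 measured genes outside the 55. The lists were chosen with earlier results of these data known. Of the 103, 4 rose and 1 fell, against the shares of 1.96% and 0.857% given above for all probe sets. After quantile and after cyclic loess normalization 0 of these genes rose and 1 fell, Rptor, the scaffold subunit of mTORC1, which was not called in the values as deposited (-0.24, limma adjusted p = 0.0591) and is named after its values were seen.

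In the amino acid response list, which holds ATF4, its partners and its targets, 2 of 28 rose and 0 fell, with a median of 0.04. Mthfd2, the mitochondrial folate enzyme, rose, with log2 values of 8.44, 8.19, 8.05, 8.23 and 8.19 on ILPD arrays and 7.72, 7.79 and 7.91 on placebo arrays. Its difference was 0.41 (SE 0.08, limma adjusted p = 0.0351). The call was lost when ILPD array 2, ILPD array 4 or any of the 3 placebo arrays was left out (adjusted p from 0.0707 to 0.121). Cth, which makes cysteine from cystathionine, rose by 0.29 (SE 0.06, adjusted p = 0.0396). It ran from 6.54 to 6.71 in ILPD and from 6.27 to 6.43 in placebo, and among the fits without 1 array its call was kept only without ILPD array 5, the others giving up to 0.138. In this list 16 genes had a positive and 12 a negative difference. At an unadjusted limma p under 0.05, 2 were higher and 5 lower, against 18.3% of all probe sets in either direction. Atf4 itself differed by -0.31 (limma adjusted p = 0.224) and Ddit3 by -0.38 (adjusted p = 0.249), both with overlapping groups. These 2 are named after their values were seen.

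Of 22 measured genes for amino acid sensing by mTORC1, 0 passed. A negative difference was seen for 21 of the 22, with a median of -0.15, which was -0.11 after quantile normalization and -0.09 after cyclic loess. Of 19 cytosolic aminoacyl-tRNA synthetases, which load amino acids onto tRNA, 0 passed and 16 had a negative difference. Their median was -0.08, which was -0.04 after quantile normalization and -0.02 after cyclic loess. Over all 28826 probe sets, 11955 had a negative difference as deposited. The median of all probe sets was 0.02 at mean log2 values from 8 to 9, -0.05 from 9 to 10, -0.10 from 10 to 11 and -0.13 from 11 to 12. Genes of both lists had mean log2 values from 7.60 to 11.34. Negative differences after normalization were not counted.

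Among 16 other carriers of amino acids and peptides, 1 rose. Slc15a2, which takes up short peptides with protons, had log2 values between 7.30 and 7.41 in ILPD and between 7.02 and 7.14 in placebo, a difference of 0.27 (SE 0.05, limma adjusted p = 0.0328). The call was kept without ILPD array 1 or 5 and lost when any 1 of the other 6 arrays was left out (up to 0.123). In the list for synthesis of creatine, taurine and glutathione, 1 of 13 rose. Gatm, which catalyses the first step of creatine synthesis, had log2 values between 8.92 and 9.07 in ILPD and between 8.52 and 8.82 in placebo. Its difference was 0.33 (SE 0.07, adjusted p = 0.0484), and among the fits without 1 array the call was kept only without placebo array 1, the others giving up to 0.153. Among 5 accessory and trafficking partners 1 fell: Bsg, a chaperone of membrane carriers, at 13.36 to 13.44 in ILPD and 13.59 to 13.63 in placebo. Its difference was -0.21 (SE 0.05, adjusted p = 0.0450), a call lost whichever 1 of the 8 arrays was left out (up to 0.134), and it was -0.08 after quantile and -0.02 after cyclic loess normalization.

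**Figure D4:**
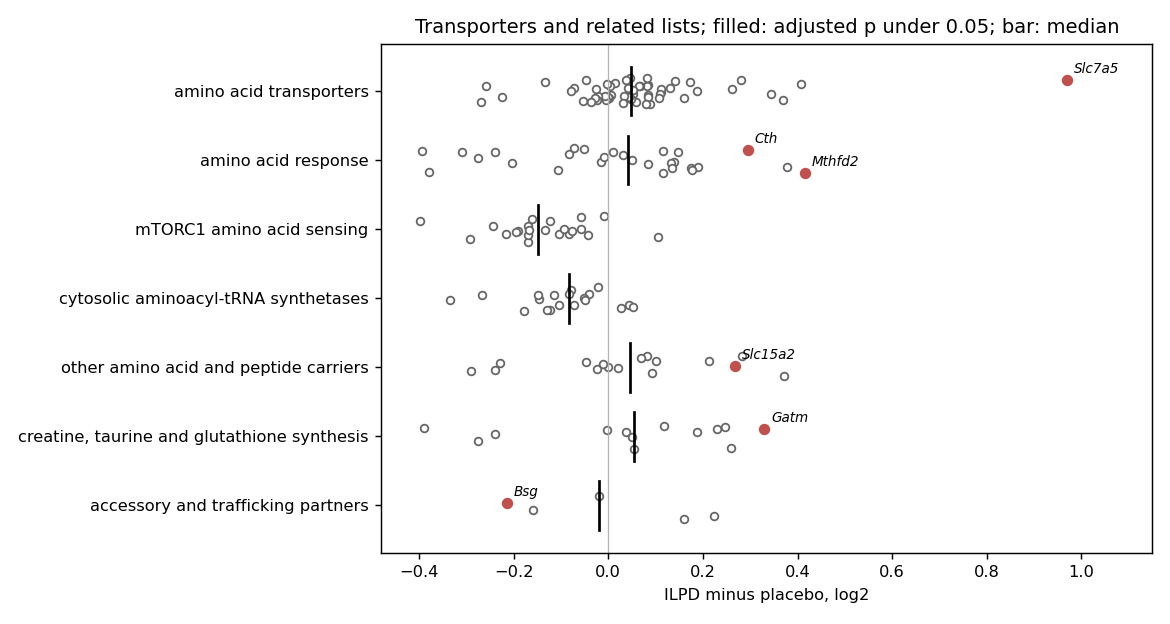
Difference between ILPD and placebo on the log2 scale for the 55 transporter genes and for the 6 lists of related genes, with a filled point and a name for an adjusted p under 0.05 and a bar for the list's median. Slc7a5 lies apart at 0.97, and the other named genes lie between -0.21 and 0.41.

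Markers of 12 cell types were read beside these results. Of 6 neutrophil markers 1 rose, Mmp9 by 0.58 (SE 0.13, limma adjusted p = 0.0466), and all 6 had a positive difference, with a median of 0.66. The mean log2 value over these 6 was 8.15 to 9.16 on ILPD arrays and 7.67 to 8.35 on placebo arrays, so the groups overlapped. The call of Mmp9 was kept only without ILPD array 3 among the fits without 1 array, the others giving up to 0.162. Its groups overlapped, with ILPD array 3 (7.065) just under placebo array 1 (7.071). Mmp8 differed by 1.32 (limma adjusted p = 0.0511) and Cxcr2 by 1.02 (adjusted p = 0.0898). Both differences were larger than that of Slc7a5, but the groups overlapped and neither gene passed. Mmp8 and Cxcr2 are named after their values were seen. Of 6 monocyte and macrophage markers 0 passed, and 5 of the 6 had a positive difference. Their list mean was 9.22 to 9.66 in ILPD and 8.90 to 9.21 in placebo, so the groups did not overlap, by a narrow margin. Ccr2, the chemokine receptor of recruited monocytes, is named after its values were seen. It had log2 values of 11.41, 10.90, 10.23, 10.65 and 10.64 on ILPD arrays and 10.31, 9.11 and 9.23 on placebo arrays. Its difference was 1.21 (SE 0.30, limma adjusted p = 0.0624), larger than that of Slc7a5 but with overlapping groups, and it passed in 4 of 15 alternatives. The list mean above includes Ccr2, and without it the groups overlap. The other 5 markers differed by -0.17 (Adgre1) to 0.36 (Cd14). Of 5 T and NK cell markers 1 rose, Klrd1 by 0.52 (limma adjusted p = 0.0304). That call was lost when any 1 placebo array was left out (up to 0.103). The list mean was 7.30 to 7.45 in ILPD and 7.14 to 7.24 in placebo, without overlap. It includes Klrd1, and without that gene the groups overlap. The other 4 markers had smaller differences, from 0.03 to 0.16. The remaining 9 lists had 0 calls. White blood cells are known to use Slc7a5, Slc3a2 and Slc7a2, and the part of these cells in the differences was not tested.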

How the data were processed

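Total RNA of rat left ventricle was labelled with biotin and hybridised to Affymetrix arrays, per the labels' protocols. The authors deposited 1 value per probe set and array on a log2 scale, as the range of the values shows. Background correction, summarization and normalization are not given in the sources used here, and the submitters' processing notes name R 2.14.2. Of 28826 probe sets, 15209 had 1 gene symbol in the platform annotation, 306 several and 13311 none. All 55 members matched a RefSeq gene of assembly GRCr8 by gene ID.

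Differences were fitted over all probe sets with limma 3.58.1 in R 4.3.3 (lmFit, eBayes, no covariates, two-sided, Benjamini-Hochberg adjustment, threshold 0.05), without a filter or pseudocount, and drawn with matplotlib 3.10.9. Named were members past the threshold, the 5 largest differences in each direction, members of prior interest, and list genes past the threshold. Members and lists were chosen with earlier results of these data known. On simulated data of this comparison with 28826 probe sets, 83.6% of 1.5-fold and 97% of 2-fold changes were recovered, and 5.63% of calls were false. Same-numbered arrays of the 2 groups had deviations from their group means that correlated at 0.22, -0.06 and -0.10, so the numbers were not taken as pairs. Alternatives were quantile and cyclic loess normalization, an intensity trend with a robust prior, array weights, a filter on dim probe sets, named probe sets alone, the replicate block, gene means, a threshold of 0.1 and leaving out each array.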

Additional observations from a re-analysis of the deposited data

Results flagged for a closer look

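Among the 5 ILPD arrays, 7 of the 55 genes had 1 array far from the other 4, by a gap of over 0.71 of the group's whole range (Dixon's 95% limit for 5 samples). Chance flags about 1 in 20 groups of independent values. The 55 genes share the same 5 arrays, and the share flagged over all probe sets was not taken. The 7 therefore cannot be read as more than the background. The high values were 6.75 for Slc1a2 on ILPD array 2 (others 6.61 to 6.63), 6.53 for Slc38a5 on ILPD array 4 (others 6.40 to 6.43) and 8.36 for Slc43a1 on ILPD array 3 (others 8.09 to 8.15). The low values were 10.73 for Slc38a3 on ILPD array 1 (others 11.05 to 11.18), 6.29 for Slc6a18 on ILPD array 2 (others 6.35 to 6.37), 6.65 for Slc6a2 on ILPD array 3 (others 6.74 to 6.76) and 6.79 for Slc6a7 on ILPD array 3 (others 6.87 to 6.91). Slc38a3 showed the widest gap of the 7 on the log2 scale, and placebo array 1 was as low, at 10.74. Slc1a2, Slc38a5, Slc6a18 and Slc6a2 lie within the dimmest 40% of probe sets.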

How the results depend on the processing

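The call of Slc7a5 was kept in 12 of 16 fits, with differences of 0.79 to 1.22 when 1 array was left out; it was lost without ILPD array 2 (0.90), ILPD array 3 (0.94), placebo array 1 (0.89) or placebo array 2 (0.79), where fewer samples were fitted. Members that rose numbered 2 after cyclic loess, with array weights, with named probe sets alone and at a threshold of 0.1 (Slc6a6 beside Slc7a5 in each), and 0 to 2 without 1 array. Members that fell numbered 1 at a threshold of 0.1 (Slc6a8) and 0 to 1 without 1 array. With the replicate number as a block, 4 members rose (Slc7a5, Slc7a6 by 0.50, Slc7a2 by 0.55 and Slc3a2 by 0.42). They were among 459 calls over all probe sets, against 811 without the block. The samples share only a number. No placebo array has the number of ILPD arrays 4 and 5, so these differences come from arrays 1 to 3 of each group. The members' median difference was -0.01 after quantile and 0.0060 after cyclic loess normalization, and 0.01 to 0.06 without 1 array.

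Of the 4 list genes that rose, 0 were called after quantile normalization, after cyclic loess or with the replicate block, and 0 to 3 list genes rose without 1 array. List genes that fell numbered 0 with an intensity trend and robust prior, without the dimmest 40% and with the replicate block, 2 with named probe sets alone, 6 at a threshold of 0.1 and 0 to 1 without 1 array.

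Signs turned in 26 of 430 fits of single members, none of them a member that passed the test as deposited. These were, after quantile normalization, Slc1a3 (-0.037), Slc1a4 (-0.0063), Slc36a4 (-0.031), Slc43a2 (-0.0070) and Slc7a7 (-0.042); after cyclic loess, Slc1a3 (-0.029), Slc36a4 (-0.0096) and Slc7a7 (-0.031); with array weights, Slc1a1 (0.00040); and with the replicate block, Slc1a3 (-0.041), Slc36a1 (-0.012) and Slc43a1 (0.0045). Without 1 array, the ranges that cross 0 were -0.13 to 0.064 for Slc1a1, -0.0068 to 0.079 for Slc1a3, -0.14 to 0.0039 for Slc1a5, -0.0075 to 0.18 for Slc38a3, -0.0032 to 0.14 for Slc38a9, -0.079 to 0.043 for Slc43a1, -0.013 to 0.11 for Slc43a2, -0.054 to 0.052 for Slc6a9, -0.041 to 0.39 for Slc7a1 and -0.11 to 0.15 for Slc7a8. The cause of these changes was not tested. No signal over background was used here, so dim probe sets limit what could be seen for 21 of the 55 genes.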
